A study of Mus musculus with 17 samples.

Results

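The expression of 10 surface receptor genes of B cells was followed in mouse whole blood after X-rays: Ms4a1, Cr2, Fcmr, Fcer2a, Cxcr5, Tnfrsf13c, Cd72, Cd37, Fcrla and Ly6d. Each gene was read by the array probe set that the platform annotation gives to that symbol alone and, where there was more than 1, by the one whose mean over all 17 arrays was highest. All 10 genes were found among the 18193 genes named in this way, and all 10 passed the filter on dim probe sets that left 12699 genes for testing. The blood came from female C57BL/6JJcl mice of 8 weeks that were given total-body X-rays at 1.0 Gy/min and killed 24 h later. The groups were 5 unirradiated control mice (0 Gy), 4 mice at 0.5 Gy, 4 mice at 1.0 Gy and 4 mice at 3.0 Gy, with 1 Affymetrix array per mouse. All mice were of the same inbred strain, had no transgene or deletion named in the labels and were bled into an RNA-stabilising tube. The samples are labelled as biological replicates, so the error given here is the spread between mice.

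B cells carry their antigen receptor together with co-receptors that raise or lower its signal, receptors for antibody and complement, receptors for survival factors, and chemokine receptors that lead them from the blood into lymphoid follicles. Resting B cells circulate in mouse blood in large numbers and are among the cells most readily killed by ionising radiation. A level measured in whole blood sums over all cell types, so that fewer B cells in the blood and less of a transcript per B cell cannot be told apart in these data.

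Over the control mice, 31 other B cell surface genes had a mean log2 level of 6.73 to 7.26, above array medians of 3.47 to 3.57. These genes had passed the filter on dim probe sets, so a mean above the array medians was largely set in advance. This level therefore does not check the cell type, and the list includes Cd81, which many cell types carry. The signalling chains of the antigen receptor, Cd79a and Cd79b, changed by -2.56 and -3.62 log2 units at 3.0 Gy, both called lower. The probe set of Pax5, the transcription factor that holds B cell identity, changed by -0.14 log2 units at 3.0 Gy, with an adjusted p of 0.393. Precision is set by the few mice in each group.

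Promoter sequence was at hand for 7 of the 10 genes, in RefSeq windows of 250 bases before to 50 bases after a transcript start on GRCm38.p6. The windows of Fcmr and Fcrla, which had the largest and one of the next-largest falls at 3.0 Gy, and of Cd37 and Cr2, which had the smallest falls, are shown because the contrast between these genes runs through the results. Capitals mark matches to the E-box CAGGTG, a letter string bound by E proteins such as E2A, and to GAGGAA, a core bound by PU.1 and related ETS factors, each on either strand and with no overlap between the matches. The windows lie at chr1:130865527-130865826 on the plus strand for Fcmr, at chr1:170927534-170927833 on the minus strand for Fcrla, at chr7:45238790-45239089 on the minus strand for Cd37 and at chr1:195176670-195176969 on the minus strand for Cr2.
Fcmr: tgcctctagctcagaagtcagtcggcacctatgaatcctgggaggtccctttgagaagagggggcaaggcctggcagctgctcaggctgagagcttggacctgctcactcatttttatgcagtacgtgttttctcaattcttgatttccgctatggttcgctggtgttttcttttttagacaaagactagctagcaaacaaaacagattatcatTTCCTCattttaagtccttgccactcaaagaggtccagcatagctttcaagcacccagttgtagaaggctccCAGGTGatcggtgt
Fcrla: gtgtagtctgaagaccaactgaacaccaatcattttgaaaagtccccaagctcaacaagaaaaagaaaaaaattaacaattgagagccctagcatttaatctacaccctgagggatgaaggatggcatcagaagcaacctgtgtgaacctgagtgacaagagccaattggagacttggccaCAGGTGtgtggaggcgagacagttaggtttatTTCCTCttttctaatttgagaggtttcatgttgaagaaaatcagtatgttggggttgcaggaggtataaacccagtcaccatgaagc
Cd37: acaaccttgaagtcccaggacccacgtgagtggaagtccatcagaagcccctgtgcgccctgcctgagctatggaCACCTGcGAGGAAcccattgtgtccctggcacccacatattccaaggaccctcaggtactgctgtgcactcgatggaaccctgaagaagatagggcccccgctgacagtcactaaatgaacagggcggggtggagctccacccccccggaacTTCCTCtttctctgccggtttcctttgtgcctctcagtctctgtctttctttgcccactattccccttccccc
Cr2: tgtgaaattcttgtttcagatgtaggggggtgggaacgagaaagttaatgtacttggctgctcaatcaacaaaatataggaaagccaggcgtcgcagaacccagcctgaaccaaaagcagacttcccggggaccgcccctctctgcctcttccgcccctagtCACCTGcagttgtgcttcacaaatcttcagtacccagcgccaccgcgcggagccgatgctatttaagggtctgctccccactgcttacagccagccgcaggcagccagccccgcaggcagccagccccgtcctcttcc

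The E-box letters stood in 6 of 9 windows of these genes, at least 1 window each for Cr2, Fcmr, Fcer2a, Tnfrsf13c, Cd37 and Fcrla, against 20.2% of all 32851 mouse windows of this length. The GAGGAA core stood in the windows of Fcmr, Cd72, Cd37 and Fcrla, against 28.3% of all windows. Neither the octamer ATGCAAAT, found in 1.74% of all windows, nor the palindrome bound by EBF1, found in 0.904%, was spelled out in any of the 9 windows. Genes with a large and with a small fall both held the E-box letters. The matches are letters in a window and were not tested against the changes.

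At 3.0 Gy every one of the 10 genes was lower than in control blood. All 10 passed the test in limma at an adjusted p under 0.05, where 29.2% of all genes tested were called lower. Their median change was -2.89 log2 units, a level 7.39-fold lower, while the median of all genes tested was 0.04. The changes ran from -3.64 for Fcmr to -1.03 for Cr2. All 40 values of the 10 genes in the 4 mice at 3.0 Gy lay below all 5 control values of the same gene, a separation that 22.9% of all genes tested showed. A fall of at least 1 log2 unit was called for all 10 genes and for 11.1% of all genes, and a fall of at least 2 log2 units for 8 of the 10 and for 1.54% of all genes.

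**Figure D1:**
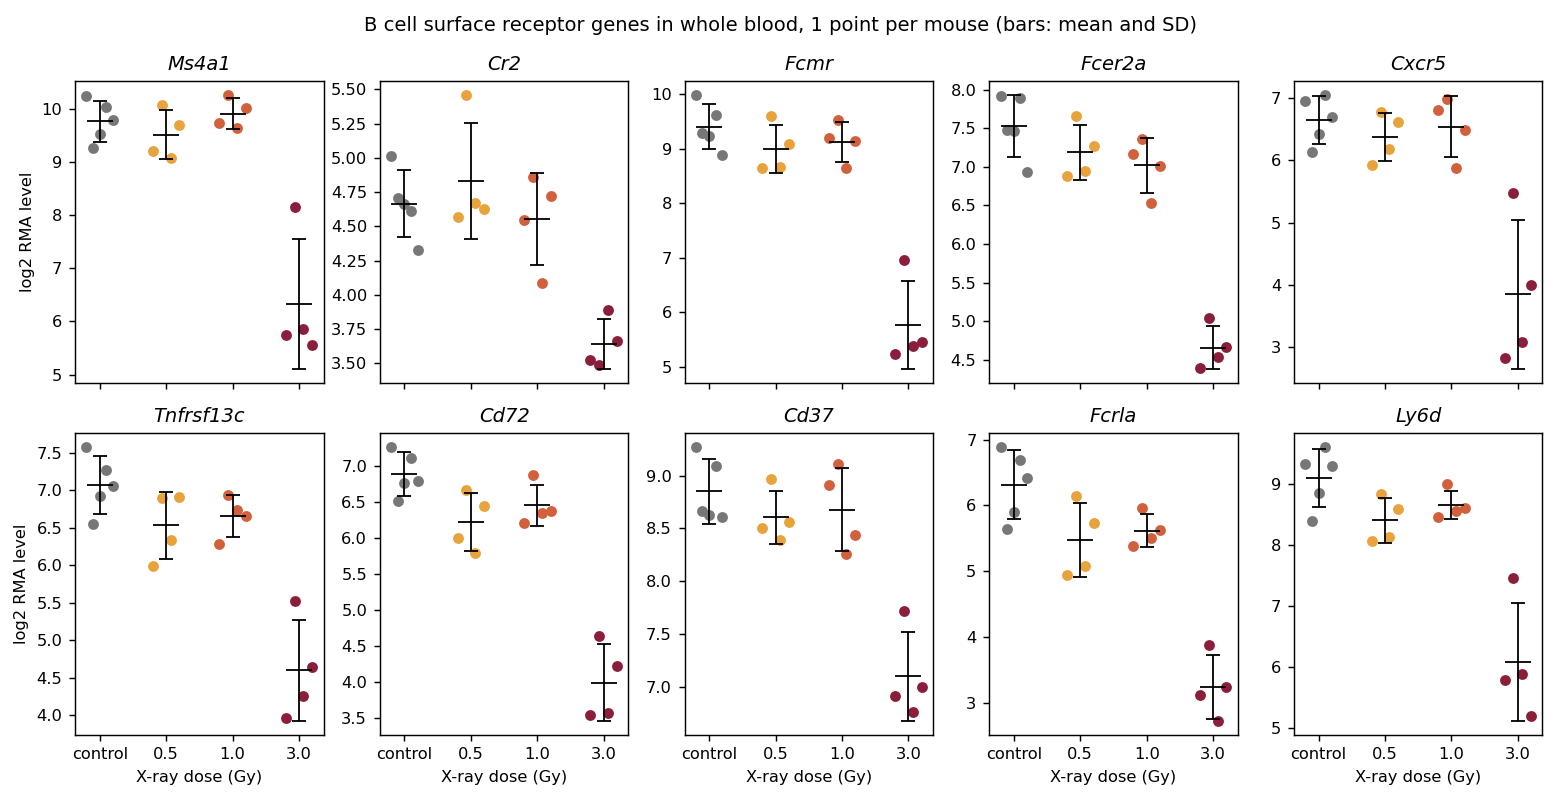
Log2 RMA level of each of the 10 genes (vertical axis, its own scale in each panel) by X-ray dose (horizontal axis), with 1 point per mouse and bars for mean and SD. The 3.0 Gy points lie below all control points in every panel, while the 0.5 and 1.0 Gy points overlap with control in every panel.

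Among the receptors for antibody, Fcmr, the receptor for the Fc part of IgM, had the largest fall. Its log2 levels were 9.99, 9.29, 9.24, 9.61 and 8.89 in the control mice, 8.65, 9.59, 8.66 and 9.08 at 0.5 Gy, 9.20, 9.53, 8.64 and 9.14 at 1.0 Gy, and 5.24, 6.97, 5.39 and 5.46 at 3.0 Gy. The control, 0.5 Gy and 1.0 Gy mice overlapped, and the 3.0 Gy mice stood clear below them, with replicate 2 the highest of the 4. The change at 3.0 Gy was -3.64 ± 0.30 log2 units (SE), which left 8.04% of the control level (adjusted p = 3.54e-08). Fcer2a, the low-affinity IgE receptor CD23, averaged 4.66 ± 0.28 at 3.0 Gy and 7.53 ± 0.40 in controls (SD, n = 4 and 5). Its change of -2.87 ± 0.21 had the smallest adjusted p of the 10 genes, 1.37e-08.

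Fcrla, an Fc receptor-like protein that in human B cells stays inside the cell and binds immunoglobulin there, had log2 levels of 6.89, 5.65, 5.90, 6.70 and 6.42 in the control mice, 4.94, 6.15, 5.07 and 5.73 at 0.5 Gy, 5.38, 5.96, 5.50 and 5.63 at 1.0 Gy, and 3.12, 3.88, 2.72 and 3.24 at 3.0 Gy. The 0.5 Gy mice and the 1.0 Gy mice overlapped with the lower control mice, and all 4 mice at 3.0 Gy lay below every other mouse. Its change at 3.0 Gy was -3.07 ± 0.28 log2 units (adjusted p = 7.75e-08). In 3 of the 4 mice at 3.0 Gy the Fcrla probe set was below its own array's median. The values of Cr2 and Cxcr5 were below it in 2 mice each and that of Cd72 in 1. RMA can understate the fold change of dim probe sets, and whether it did so for these genes was not tested. The Fcrla probe set is of the _s_at type, which can bind more than 1 transcript. Of its other 2 probe sets, which are not of that type, 1 fell by 2.84 log2 units and the other, a dim one, by 0.82.

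Of the co-receptors that tune the antigen receptor, Cd72, an inhibitory receptor that binds the semaphorin CD100, averaged 4.00 ± 0.54 log2 units at 3.0 Gy and 6.90 ± 0.30 in controls (SD, n = 4 and 5). Its change was -2.90 ± 0.23, a level 7.47-fold lower (adjusted p = 2.23e-08). Cr2, the complement receptor CD21 that binds C3 fragments, had the smallest fall. Its log2 levels were 5.01, 4.71, 4.66, 4.62 and 4.33 in the control mice, 4.57, 5.46, 4.67 and 4.63 at 0.5 Gy, 4.54, 4.86, 4.09 and 4.72 at 1.0 Gy, and 3.52, 3.49, 3.89 and 3.66 at 3.0 Gy. The 3.0 Gy mice were below all others, and the other 3 groups overlapped, with 1 mouse at 0.5 Gy above every other. The change at 3.0 Gy was -1.03 ± 0.19, a level 2.04-fold lower (adjusted p = 0.000147). The Cr2 probe set was dim already in control blood, down to the 66th percentile of its own array in 1 control mouse, and the part of this in its small fall was not tested.

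The survival receptor Tnfrsf13c, the BAFF receptor on which mature B cells depend, averaged 4.60 ± 0.67 log2 units at 3.0 Gy and 7.07 ± 0.39 in controls (SD, n = 4 and 5). It fell by 2.48 ± 0.27 log2 units, a level 5.56-fold lower (adjusted p = 5.56e-07). Cxcr5, the receptor for the chemokine CXCL13 that draws B cells into follicles, had log2 levels of 2.82, 5.48, 3.08 and 4.00 at 3.0 Gy, against 6.95, 6.13, 6.42, 7.06 and 6.71 in the control mice. Its 4 irradiated mice spanned 2.66 log2 units, the widest range of the 10 genes, and did not overlap with control. The change was -2.81 ± 0.39 (adjusted p = 8e-06).

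Among the membrane proteins with other or less defined ligands, Ms4a1, which encodes CD20, the target of B cell-depleting antibodies, had log2 levels of 10.23, 9.25, 9.52, 10.02 and 9.79 in the control mice, 9.21, 10.06, 9.07 and 9.70 at 0.5 Gy, 9.73, 10.26, 9.63 and 10.01 at 1.0 Gy, and 5.75, 8.15, 5.86 and 5.55 at 3.0 Gy. The control, 0.5 Gy and 1.0 Gy mice overlapped throughout. Replicate 2 at 3.0 Gy lay between the controls and the other 3 mice at that dose. The change at 3.0 Gy was -3.44 ± 0.39 (adjusted p = 7.85e-07), and -4.04 without that replicate. A second Ms4a1 probe set changed by -3.55.

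Ly6d, a GPI-anchored protein that marks B-lineage commitment in mouse progenitors, averaged 6.09 ± 0.97 log2 units at 3.0 Gy and 9.10 ± 0.47 in controls (SD, n = 4 and 5). It fell by 3.01 ± 0.33 log2 units (adjusted p = 5.96e-07). Cd37, a tetraspanin that is abundant on B cells and is present on other leukocytes too, had log2 levels of 6.91, 7.72, 6.77 and 7.00 at 3.0 Gy, against 9.27, 8.67, 8.63, 9.09 and 8.61 in the control mice. The groups did not overlap, and replicate 2 at 3.0 Gy was the nearest to control, at -0.89 log2 units from the lowest control mouse. The change was -1.75 ± 0.21 (adjusted p = 1.51e-06), which left 29.7% of the control level, and a second Cd37 probe set changed by -1.30.

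**Figure D2:**
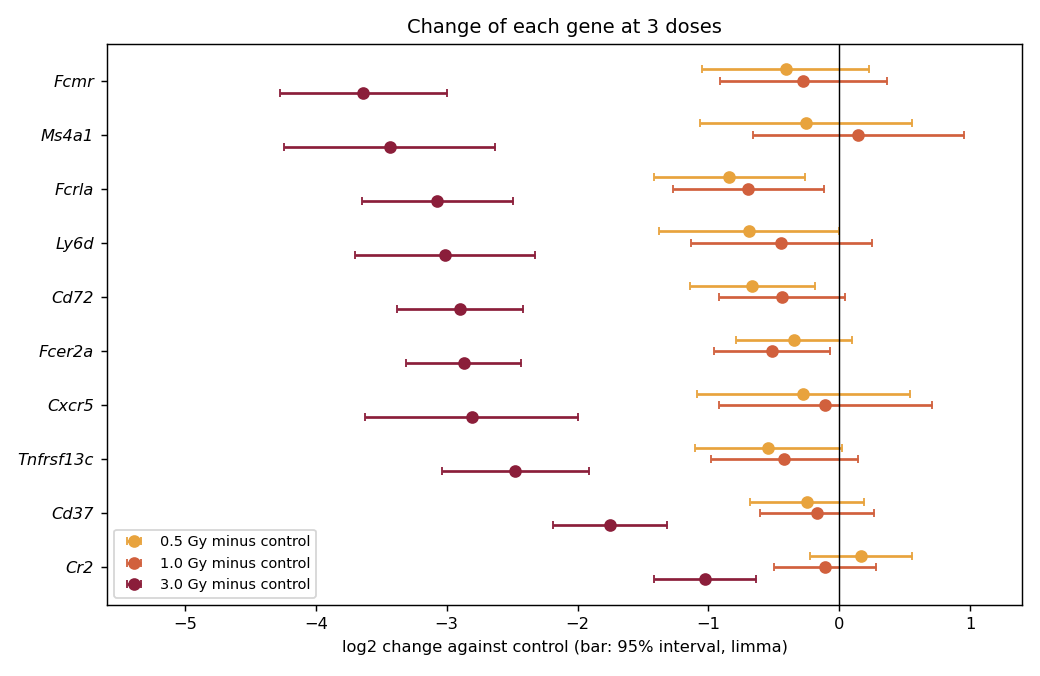
Log2 change of each gene against control (horizontal axis) at 0.5, 1.0 and 3.0 Gy, with genes in order of their change at 3.0 Gy; points are limma estimates and bars 95% intervals. The 3.0 Gy intervals all lie below 0, from -4.28 to -0.64, while most intervals at 0.5 and 1.0 Gy cross 0.

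At 0.5 Gy, 0 of the 10 genes passed the test in limma, where 5% of all genes tested were called lower. The means of 9 genes were below control, against 54.6% of all genes, and Cr2 had one above it, with a change of 0.17. The median change was -0.38 log2 units, and the median of all genes was -0.02. Unadjusted p-values were under 0.05 for 2 genes, Fcrla with a change of -0.84 ± 0.28 (adjusted p = 0.0611) and Cd72 with -0.66 ± 0.23 (adjusted p = 0.0778). Over the 10 genes the 95% intervals reached from -1.42 to 0.56, so a fall of up to 1.42 log2 units at this dose was within the error for Fcrla. The calls of these 2 genes depended on single arrays and on the processing: both passed without control replicate 2, without 0.5 Gy replicate 2 or without 3.0 Gy replicate 2, with adjusted p-values of 0.0437, 0.0362 and 0.0371 for Cd72 and 0.0191, 0.0181 and 0.0375 for Fcrla.

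At 1.0 Gy, 0 of the 10 genes passed, where 8.49% of all genes were called lower. Again 9 genes had a mean below control, against 57.5% of all genes, and the exception was Ms4a1 with a change of 0.14. The median change was -0.35, and the median of all genes was -0.04. Unadjusted p-values were under 0.05 for Fcrla, with -0.69 ± 0.28 (adjusted p = 0.0965), and for Fcer2a, with -0.51 ± 0.21 (adjusted p = 0.108). Fcrla passed without control replicate 2 (adjusted p = 0.0339), and Fcer2a without control replicate 5 (adjusted p = 0.0289). Another 2 probe sets, not the ones used for these genes, passed with adjustment over all probe sets, a second one of Fcer2a with a change of -0.89 (adjusted p = 0.00702) and one of Fcrla with -0.97 (adjusted p = 0.0202). The 3 dose contrasts share the same 5 control mice.

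Between the low doses, 0 of the 10 genes differed, where 0.0157% of all genes were called lower at 1.0 than at 0.5 Gy and 0 called higher. The smallest adjusted p of the 10 genes was 0.972, no unadjusted p was under 0.05, and the 95% intervals reached from -0.69 to 1.25 log2 units. The highest dose differed from both: all 10 genes were called lower at 3.0 Gy than at 1.0 Gy, where 22.7% of all genes were, with a median change of -2.42. All 10 were called lower at 3.0 Gy than at 0.5 Gy, where 20.9% of all genes were, with a median of -2.28.

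The signal of the 18S ribosomal RNA control probe sets also set the low doses apart. It averaged 10.52 log2 units in controls (9.82 to 11.19), 12.69 at 0.5 Gy (11.76 to 13.43), 13.28 at 1.0 Gy (12.89 to 13.52) and 10.68 at 3.0 Gy (10.50 to 10.84). The 3.0 Gy and control ranges overlapped, and those of both low doses lay above them. With the 18S level as a covariate, all 10 genes were still called lower at 3.0 Gy than in control, where 3715 of all 12699 genes were. Against 1.0 Gy that fit called 0 of the 10 genes, and 0 of all genes in either direction. Against 0.5 Gy it called 2 of the 10 lower, Fcmr and Fcer2a, where 87 of all genes were. The changes of the 10 genes against 1.0 Gy stayed below 0 in that fit, from -2.72 for Fcmr to -0.61 for Tnfrsf13c. In the same fit, Tnfrsf13c (-1.75) and Fcrla (-2.26) were called lower at 0.5 Gy, where 325 of all genes were. Fcrla (-2.502) was also called lower at 1.0 Gy, where 321 of all genes were. Ms4a1 at 1.0 Gy turned to -1.46 (adjusted p = 0.501) with the covariate. Where the groups do not overlap in it, the 18S level and the dose cannot be told apart.

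A straight line on the dose was called for all 10 genes, where 27.5% of all genes had a falling slope. The slopes ran from -1.24 log2 units per Gy for Fcmr to -0.38 for Cr2. Such a line leans on the 3.0 Gy mice. From 0.5 to 1.0 Gy the mean fell for 2 of the 10 genes, against 50.1% of all genes. A test for a change at any dose also called all 10, with 48.2% of all genes called. A further contrast, chosen after the values were seen, set the change per Gy between 1.0 and 3.0 Gy against that between 0 and 1.0 Gy. It was called for Ms4a1, with -1.79 per Gy above 1.0 Gy, 0.14 per Gy below it and a difference of -1.94 ± 0.52 (adjusted p = 0.0184). It was also called for Fcmr, with -1.68 and -0.27 per Gy and a difference of -1.41 ± 0.41 (adjusted p = 0.0289). Of all genes, 8.66% had a called difference in that direction. For the other 8 genes the difference was below 0 as well, from -1.24 for Cxcr5 to -0.35 for Cr2, and did not pass.

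The measured falls of the 10 genes differed in size. Each gene was set against the mean of the other 9 on the same array, and the difference was compared between a dose and control by an exact permutation test, two-sided, over all regroupings of the 9 mice, in 30 comparisons. At 3.0 Gy the difference was 1.05 log2 units for Cd37, a smaller measured fall than that of the others, and -1.04 for Fcmr, a larger one; in both cases all 4 irradiated mice lay outside the control range (exact p = 0.00794, adjusted p = 0.0476). The mean of the others includes Cr2, Fcrla, Cxcr5 and Cd72, which had values below their array's median at 3.0 Gy, so the sizes of these differences depend on how far dim probe sets can be followed. For Cr2 the difference was 1.86, given as a value only. Its control mean of 4.67 was the lowest of the 10 genes and lay above control array medians of 3.47 to 3.54. How far this low level limited its measured fall was not tested. At 1.0 Gy, Ms4a1 was higher relative to the others by 0.50 in all 4 mice (exact p = 0.00794, adjusted p = 0.0476), with 2.87 ± 0.11 at 1.0 Gy and 2.38 ± 0.13 in controls. At 0.5 Gy, Cd72 was lower relative to the others by 0.28 in all 4 mice (exact p = 0.00794, adjusted p = 0.0476).

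The exact p of 0.00794 is the smallest the design allows, and the adjusted values pass only because 5 of the 30 comparisons, Cr2 at 3.0 Gy included, reached it together. Leaving out arrays cannot test these calls, since with 1 array fewer the smallest p rises or fewer comparisons reach it. Set against Cd79a and Cd79b in place of the other 9 genes, Cd37 at 3.0 Gy and Ms4a1 at 1.0 Gy kept their calls. Fcmr at 3.0 Gy had a difference of -0.55 (exact p = 0.0238, adjusted p = 0.0549) and Cd72 at 0.5 Gy turned to 0.13 (exact p = 0.111, adjusted p = 0.167). Cd79a was itself called lower in limma at 0.5 Gy (-0.79) and 1.0 Gy (-0.87). The differences against this pair therefore include its own change.

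**Figure D3:**
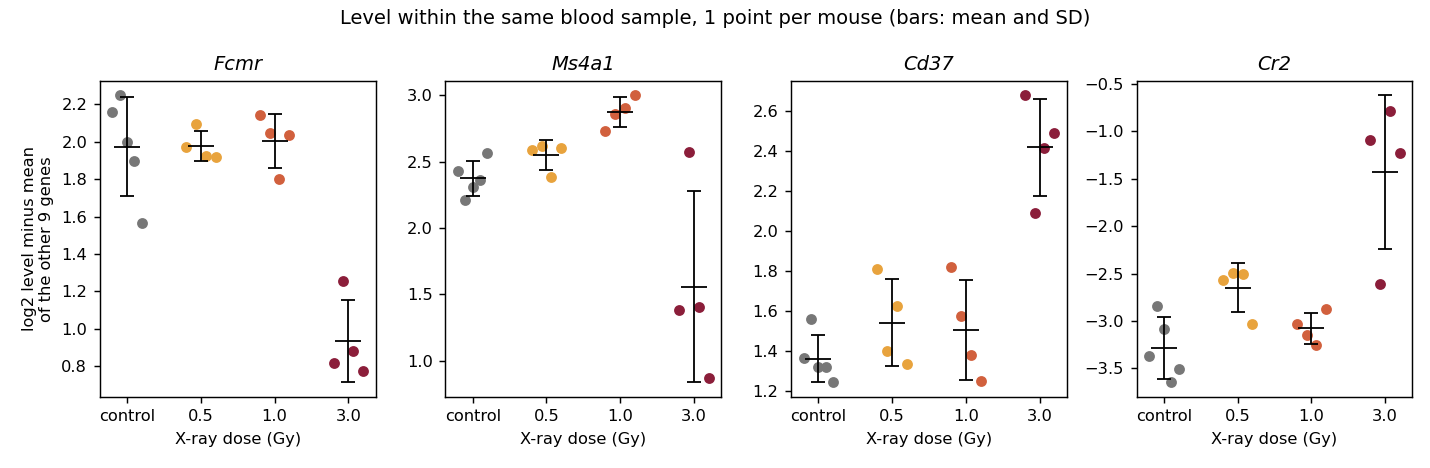
Level of 4 genes relative to the mean of the other 9 on the same array (vertical axis, log2 units, its own scale in each panel) by X-ray dose, with 1 point per mouse and bars for mean and SD. At 3.0 Gy the Cd37 and Cr2 points lie above all control points and the Fcmr points below them; Ms4a1 is above control in all 4 mice at 1.0 Gy and spread at 3.0 Gy, where 1 mouse is above and 3 are below the controls.

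One mouse at 3.0 Gy stood apart. Replicate 2 had the highest level of the 4 in 9 of the 10 genes and the lowest in Cr2. Over all 12699 genes it was the highest in 4289 and the lowest in 3602. Its level exceeded the mean of the other 3 mice by a median of 1.05 log2 units over the 10 genes. The excess was 2.43 for Ms4a1, 2.18 for Cxcr5, 1.84 for Ly6d and 1.60 for Fcmr. In that mouse every gene was still below the lowest control, with differences from -0.65 log2 units for Cxcr5 to -1.93 for Fcmr. The platelet markers ran the other way: 14 of 18 were the lowest of the 4 mice in replicate 2, with a median of -0.65 against the other 3. The excess was not limited to the 10 genes: 12 of 19 genes of B cell receptor signalling and 14 of 31 other B cell surface genes were highest there, with medians of 0.25 and 0.18 and excesses of up to 2.36 and 2.33. Of the T cell markers, 6 of 21 were highest there, with a median of 0.02, and over all genes the median was 0.03. Without this mouse all 10 genes were still called at 3.0 Gy, and the change was -4.04 for Ms4a1, -4.04 for Fcmr, -3.47 for Ly6d, -3.35 for Cxcr5 and -0.98 for Cr2. For Ms4a1 the fold changed by over 1.5 times. The same replicate number was the highest in the other irradiated groups too. Averaged over the 10 genes, each centred on its own mean, replicate 2 stood at 0.88 at 0.5 Gy and 0.87 at 1.0 Gy. The next-highest mice of those groups stood at 0.53 and 0.49. Control replicate 2 was the lowest control, at 0.44.

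**Figure D4:**
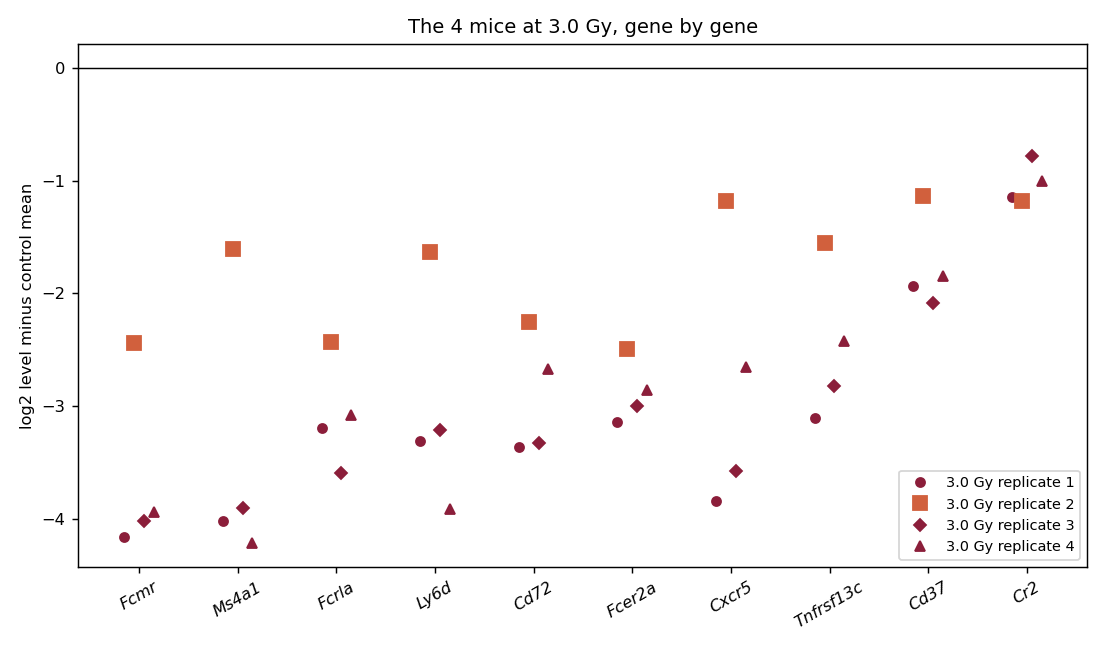
Level of each gene in the 4 mice at 3.0 Gy minus the control mean of that gene (vertical axis, log2 units), with 1 symbol per mouse and genes in order of their mean change. Replicate 2 is the highest point for 9 genes and the lowest for Cr2, and no point reaches 0.

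Mice that were high in 1 of the genes tended to be high in the others. After each value was set against its own group's mean, the correlation over the 17 arrays had a median of 0.77 over the 45 pairs of genes, from 0.10 for Cr2 with Ly6d to 0.95 for Ms4a1 with Ly6d. These points share the arrays and the normalization, and replicate 2 at 3.0 Gy enters every pair. Outside the 10 genes, the genes whose level over all 17 arrays was most like their mean were Igkv8-30 (r = 0.992), Hvcn1 (r = 0.992), Cnn3 (r = 0.991), Cd74 (r = 0.990), Cd22 (r = 0.988) and Cd79b (r = 0.987). The 17 arrays include the 3.0 Gy group, and all 6 genes were lower there, by 3.05 log2 units for Cd74 to 3.97 for Cnn3. The probe sets of Igkv8-30 and Cnn3 are of the _x_at type and can bind related transcripts.

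Other B cell surface genes mostly fell with these 10 at 3.0 Gy. Of 31 tested, 24 were called lower and 2 higher, where 29.2% of all genes were called lower and 20% higher, and their median change was -1.53. Btla, an inhibitory receptor, changed by -3.73, Cd83, a marker of activated antigen-presenting cells, by -2.57, and S1pr1, the sphingosine phosphate receptor for exit into blood, by -2.19. Cd81, a tetraspanin of the co-receptor complex that many cell types carry, rose by 1.74 and Cd80, a ligand of T cell costimulation, by 0.47. Cd83, S1pr1 and Cd79a were the 3 of 31 already called lower at 0.5 Gy, with changes of -0.61, -0.60 and -0.79. At that dose 1 of the 31 was called higher, where 5% of all genes were called lower and 5.24% higher. At 1.0 Gy, 8 of 31 were called lower and 2 higher, where 8.49% of all genes were called lower and 8.8% higher.

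Behind the receptors, 13 of 19 genes of B cell receptor signalling were called lower and 2 higher at 3.0 Gy, with a median of -0.62. Of all genes tested, 29.2% were called lower at that dose and 20% higher. The adaptor Bank1 changed by -3.78 and the adaptor Grap by -2.35, while the adaptor Dapp1 rose by 1.36 and Bcl10, which links the receptor to NF-kB, by 0.41. Of 17 B cell transcription factors, 12 were called lower and 0 higher, with a median of -1.73, among them Ets1 (-3.06), Bach2 (-2.98) and Irf8 (-2.40). Of 8 immunoglobulin and plasma cell genes, 4 were called lower and 0 higher, with a median of -0.10. Ighm, the heavy chain of the IgM that Fcmr binds, changed by -2.94. Cd79a and Cd79b stand in the surface list and in the signalling list.

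Of 5 ligands of these and related B cell receptors, 1 was called in each direction at 3.0 Gy, where 29.2% of all genes were called lower and 20% higher, and the median was 0.25. Tnfsf13b, which encodes BAFF, the ligand of Tnfrsf13c, rose by 0.43 ± 0.12 (adjusted p = 0.00576), and Sema4d, which encodes the Cd72 ligand CD100, fell by 0.83 ± 0.19 (adjusted p = 0.00116). Cxcl13, the ligand of Cxcr5, changed by 0.70 and did not pass (adjusted p = 0.174).

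**Figure D5:**
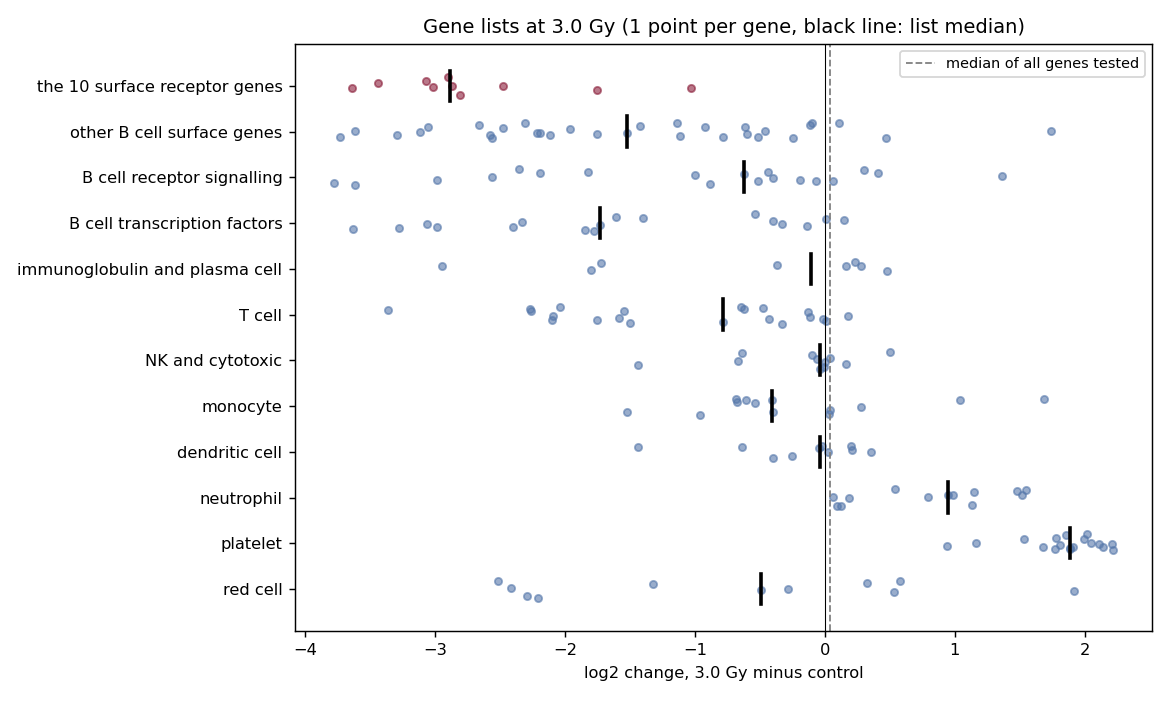
Log2 change at 3.0 Gy minus control (horizontal axis) of every gene tested in 12 marker lists, 1 point per gene, with a black line at each list's median and a dashed line at the median of all genes tested. The 10 surface receptor genes lie between -3.64 and -1.03 with a median of -2.89, lists of T cell and other B cell genes have medians below 0, and the neutrophil and platelet lists have medians of 0.95 and 1.89.

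Markers of several other blood cells changed at the same dose, where 29.2% of all genes were called lower and 20% higher. Of 21 T cell genes, 16 were called lower and 0 higher at 3.0 Gy, with a median of -0.78, and their mean level ran from 5.56 to 5.73 over the 3.0 Gy mice and from 6.41 to 7.05 over the controls. Of 13 neutrophil genes, 8 were called higher and 0 lower, with mean levels of 7.02 to 7.77 at 3.0 Gy and 6.44 to 6.80 in controls. All 18 platelet genes were called higher at 3.0 Gy, by a median of 1.89, with mean levels of 10.38 to 11.17 at 3.0 Gy and 8.67 to 9.28 in controls. They were called higher at 0.5 and 1.0 Gy too, all 18 of 18 at each, where 5.24% and 8.8% of all genes were. Their median changes were 1.09 and 1.53, at doses where 0 of the 10 surface receptor genes was called. Of 11 red cell genes, 6 were called lower and 4 higher at 3.0 Gy, and of 13 monocyte genes 7 lower and 2 higher. Among 11 NK and cytotoxic genes, 3 were called lower and 0 higher, and among 10 dendritic cell genes 2 lower and 1 higher, with a median of -0.04 in both lists and shares no larger than those of all genes. The array values are relative to all RNA in the sample, so the level of each gene depends on the RNA of the other cell types, and the part of these shifts in the falls was not tested.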

How the data were processed

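The authors deposited log2 values of 45101 probe sets for 17 arrays; the submitters' processing notes name RMA and R 3.3.2. The sources used here do not give RMA's software and settings. Platform annotation gave 34945 probe sets 1 symbol, 932 several and 9160 none; 64 were control probe sets. A gene was tested when its probe set lay above its array's 50th percentile in at least 4 arrays. The 10 genes, the marker lists and the 18S covariate were chosen with earlier results of these data known. Named genes were all 10 members, up to 3 called genes per list, dose and direction with the smallest p, and the 6 genes most alike; others named are defining markers or chosen after their values were seen.

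Differences are limma 3.58.1 estimates (R 4.3.3; lmFit, eBayes) with 4 group means over all 17 arrays, two-sided, with Benjamini-Hochberg adjustment over 12699 genes and a threshold of 0.05. Each SE rests on a spread shared by the 4 groups and does not follow a group's own spread. The SD of Ms4a1 was 1.22 at 3.0 Gy and 0.39 in controls, and that of Cr2 was 0.18 and 0.24. Single genes within the list were compared by exact permutation over mice, adjusted over 30 tests. The scripts were tested on simulated data. RMA makes the arrays' distributions alike, so a shift of most genes is partly removed. Same-numbered mice had correlations of their deviations from -0.45 to 0.50 (median 0.067). Differently numbered mice had correlations from -0.625 to 0.607 (median -0.025). These ranges overlap, so they cannot decide whether replicate numbers pair samples. Averaged over the surface receptor genes, replicate 2 was the highest mouse of every irradiated group. The main fit treated the samples as unpaired.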

Additional observations from a re-analysis of the deposited data

Results flagged for a closer look

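In 40 groups of 4 or 5 mice, 1 per gene and dose, 3 held a mouse far from the rest by Dixon's criterion at the 95% level, where chance gives about 1 in 20 groups. The Ms4a1 level of 3.0 Gy replicate 2 was 8.15 log2 units, far above the other 3 mice at that dose, with a gap of 0.882 of the group's range. The Fcmr level of the same mouse was 6.97, with a gap of 0.871 of the range. These 2 are not independent, since both come from the mouse that was the highest in 9 of the 10 genes. The Cr2 level of 0.5 Gy replicate 2 was 5.46, above the other 3 mice at that dose by 0.881 of the range, and without it the Cr2 change at 0.5 Gy was -0.043 in place of 0.167.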

How the results depend on the processing

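At 3.0 Gy against control all members tested kept their call and direction in every alternative run, including each of the 17 arrays left out in turn (10 to 10 genes) and the 18S covariate; the filter at the 75th percentile left Cr2 untested and called 9 of 9. At 0.5 Gy, 0 of 10 became 1 with the 75th percentile filter (622 of 7754 genes lower) or 2 groups fitted (559 of 12699). The mean of all probe sets (632 of 11011) and runs without _x_at and _s_at probe sets (595 of 12279) also gave 1. Repeated quantile normalization (762 of 12699), array weights (1341) and the 18S covariate (325) gave 2. At 1.0 Gy it became 2 with the mean of all probe sets and 1 with the probe set of largest variance, without _x_at and _s_at probe sets, with repeated quantile normalization, with the replicate block or with the 18S covariate; leaving out single arrays gave 0 to 1. With the replicate number as a block the counts were 0 at 0.5 Gy, 1 at 1.0 Gy (Fcer2a, -0.664, adjusted p = 0.0108) and 10 at 3.0 Gy. The 18S covariate left 0 of the 10 for 3.0 against 1.0 Gy (0 of all genes) and 2 against 0.5 Gy (87 of 12699). The contrast of changes per Gy called 2 genes, where the slope called 10. Against Cd79a and Cd79b, 11 of the 30 comparisons within the list were called, where 5 were against the other 9 genes. Against the other 9 genes, leaving out any 1 array gave 0 to 0, which cannot test stability, as stated above. The cause of the other shifts was not tested.

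Apart from Cd72 within the list, changes that turned sign had not been called. With array weights, Cr2 at 1.0 Gy was 0.002 and Cxcr5 0.055. With the 18S covariate, Cr2 at 0.5 Gy was -0.021 and Ms4a1 at 1.0 Gy -1.458, and 1.0 against 0.5 Gy was -0.012 for Fcmr, -0.084 for Cxcr5, -0.206 for Tnfrsf13c, -0.242 for Fcrla and -0.128 for Ly6d. The change of 1.0 against 0.5 Gy was also -0.072 for Fcrla without _x_at and _s_at probe sets and -0.050 for Cd37 with repeated quantile normalization, and single arrays left out gave -0.057 to 0.249 for Tnfrsf13c, -0.031 to 0.370 for Fcrla, -0.069 to 0.213 for Cd37 and -0.001 to 0.332 for Fcmr. Without 0.5 Gy replicate 2, Cr2 at 0.5 Gy was -0.043 (0.255 at the highest over single arrays left out); at 1.0 Gy, Cr2 ran from -0.213 to 0.044 and Cxcr5 from -0.259 to 0.114, both highest without 1.0 Gy replicate 3. Cd72 at 0.5 Gy against Cd79a and Cd79b was 0.127.

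Counts over all genes moved more. Array weights called 1341 genes lower and 1096 higher at 0.5 Gy in place of 635 and 665, and the 18S covariate 325 and 232. At 1.0 Gy the 18S covariate called 321 lower and 285 higher in place of 1078 and 1117; it called 0 and 0 for 3.0 against 1.0 Gy in place of 2888 and 2016, and 87 and 8 for 3.0 against 0.5 Gy in place of 2659 and 1633. Between 1.0 and 0.5 Gy, 2 lower and 0 higher genes became up to 90 and 109, with array weights. The 75th percentile filter, which tests fewer genes, called 1633 higher at 3.0 Gy in place of 2535, 1090 in place of 2016 against 1.0 Gy and a rising slope for 1590 in place of 2532. Repeated quantile normalization made 47.4% of called genes lower at 3.0 Gy in place of 59.4%, 41.3% in place of 58.9% against 1.0 Gy, 45.9% in place of 62% against 0.5 Gy and 44.9% in place of 58% for the slope, moved the median of all genes to 0.12 log2 units from 0.04, and called 3511 higher against 1.0 Gy and 2862 against 0.5 Gy. Leaving out single arrays gave 274 to 928 genes lower at 0.5 Gy, 1200 to 2533 higher against 1.0 Gy and 1049 to 1735 higher against 0.5 Gy. With 4 or 5 mice a group, a fall of the size of the intervals at 0.5 and 1.0 Gy cannot be told from none. A dim probe set may limit the size of a measurable fall, and this was not tested.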
